A study of Homo sapiens with 6 samples.

Results

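The HOX cluster genes are the homeobox genes of the 4 human HOX clusters. Genes whose symbol is HOXA, HOXB, HOXC or HOXD followed only by a number were taken, which gave 39 of the 19903 genes listed, all of them among the 17537 protein-coding genes. On GRCh38, the assembly also called hg38, the 11 HOXA genes lie at chr7:27092993-27200106 and the 10 HOXB genes at chr17:48528526-48729178, both on the minus strand. The 9 HOXC genes lie at chr12:53938765-54056030 and the 9 HOXD genes at chr2:176092891-176190907, both on the plus strand. Messenger RNA had been sequenced in 3 human lung cancer cell lines at passage 5, labelled A549, H1299 and H2030. Each line carried an empty vector or a vector overexpressing NHLRC1, the gene for the E3 ubiquitin ligase malin. With 1 library for each line and vector, the 2 libraries of a line differ in vector, and no label says whether they came from separate cultures. P-values between lines therefore measure only the spread between these libraries, which may be technical. Values are FPKM, a measure of fragment numbers per transcript length and library size. In these bulk libraries, a lower level in every cell and fewer cells expressing a gene cannot be told apart.

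NHLRC1, given as empty vector then malin, measured 1.21 and 6.82 FPKM in A549, 2.85 and 119.2 FPKM in H1299, and 0.18 and 3.69 FPKM in the H2030 pair. Its level thus followed the vector labels in all 3 lines. In the malin table of the H2030 pair, the value column bears an abbreviation of HEK293T, an embryonic kidney line, in place of H2030, so this pair is called labelled H2030 below. Paired values below are given in the same order. Depth, estimated from the spacing of low values, was 8300000 to 10600000 fragments per library. Of 9 listed lung epithelium markers, 2 to 5 reached 1 FPKM per library, and the surfactant genes SFTPB, SFTPC and SFTPD were at 0.16 FPKM or lower in every library. NKX2-1, a lung lineage factor, reached 1.85 and 3.78 FPKM in labelled H2030 and 0.77 and 0.60 FPKM in H1299, and A549 listed it at 0. FOXA2, an endoderm factor, went the other way, with 10.20 and 10.22 FPKM in A549 and 0.36 FPKM or lower elsewhere. Of 11 kidney lineage markers, 4 reached 1 FPKM in each A549 and H1299 library and 8 in each labelled H2030 library. Summed, they reached 43.5 and 46.7 FPKM in labelled H2030, against 13.7 to 15.6 FPKM in A549 and H1299. This was not limited to kidney markers. Sums of the lung markers were 47.7 and 36.3 FPKM, against 20.1 to 27.1 FPKM. Those of 11 fibroblast and endothelial markers were 36.5 and 38.0 FPKM, against 0.67 to 2.52 FPKM. Sums of 10 neuronal markers (96.8 and 112.5 against 168.9 to 257.9 FPKM) and 7 immune markers (7.21 and 7.37 against 16.7 to 56.5 FPKM) were lowest in labelled H2030. TUBB3 made up most of the neuronal sums in A549 and H1299, at 137.70 to 201.18 FPKM, against 10.29 and 7.24 FPKM in labelled H2030. Other neuronal markers went the opposite way. NEFM (30.53 and 52.62 against 0.12 to 2.11 FPKM) and NEFL (23.43 and 31.69 against 1.75 to 4.61 FPKM) were highest in labelled H2030. PAX8, a defining kidney marker, was listed at 0 in both libraries labelled H2030 and at 0.93 FPKM or lower elsewhere. SALL1 (9.11 and 9.90 against 0.39 FPKM or lower) and SIX2 (5.27 and 6.28 against 0.14 FPKM or lower) were highest in labelled H2030. OSR1 was highest in A549 (3.53 and 4.33 FPKM) and WT1 in H1299 (4.75 and 5.42 FPKM). The part of these genes in the HOX results was not tested.

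HOX proteins are transcription factors that carry a homeodomain and give cells their position along the body axis. Genes at the 3′ end of a cluster carry low numbers and are switched on early and towards the head, and genes at the 5′ end carry high numbers and are switched on late and towards the tail. Genes of the same number in different clusters are paralogues, copies that arose by duplication of an ancestral cluster. HOX proteins bind DNA with partners of the PBX, MEIS and PKNOX families, Polycomb complexes keep the clusters silent, and trithorax complexes with MLL proteins keep them active. Adult cells keep part of their code, and many HOX genes are active in lung and in lung tumours. Here anterior means paralogue groups 1 to 4, central 5 to 8 and posterior 9 to 13.

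Genes at the 5′ end of HOXD were among those that differed most between labelled H2030 and the other lines, so the 250 bases upstream of 4 of its genes are shown. They come from RefSeq on GRCh38.p14, plus strand, with CpG dinucleotides in capitals, the bases at which DNA can be methylated in mammals.
HOXD13: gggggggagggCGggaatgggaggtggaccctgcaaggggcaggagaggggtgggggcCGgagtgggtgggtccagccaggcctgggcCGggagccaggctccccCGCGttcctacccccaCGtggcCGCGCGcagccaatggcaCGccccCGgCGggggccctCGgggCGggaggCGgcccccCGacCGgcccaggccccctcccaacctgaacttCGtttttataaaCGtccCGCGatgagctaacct
HOXD12: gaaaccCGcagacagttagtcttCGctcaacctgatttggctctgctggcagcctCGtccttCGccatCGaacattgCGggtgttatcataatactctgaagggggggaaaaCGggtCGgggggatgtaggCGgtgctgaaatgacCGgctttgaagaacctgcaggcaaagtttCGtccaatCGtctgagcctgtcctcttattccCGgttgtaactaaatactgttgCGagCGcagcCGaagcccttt
HOXD11: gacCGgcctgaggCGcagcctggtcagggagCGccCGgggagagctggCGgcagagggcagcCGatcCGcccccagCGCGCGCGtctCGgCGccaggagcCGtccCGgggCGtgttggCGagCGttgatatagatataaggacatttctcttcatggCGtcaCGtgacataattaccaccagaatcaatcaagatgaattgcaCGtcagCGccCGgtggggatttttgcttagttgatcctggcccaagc
HOXD10: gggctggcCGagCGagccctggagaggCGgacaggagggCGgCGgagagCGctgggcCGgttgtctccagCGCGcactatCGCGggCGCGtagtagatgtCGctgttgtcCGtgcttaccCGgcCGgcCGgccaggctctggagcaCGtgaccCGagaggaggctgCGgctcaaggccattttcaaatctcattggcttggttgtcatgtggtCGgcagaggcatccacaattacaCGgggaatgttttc

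The window of HOXD13, which patterns digits and the urogenital tract, is chr2:176092471-176092720 and holds 21 CpG. The window of HOXD12 is chr2:176099545-176099794 with 16, that of HOXD11 chr2:176107030-176107279 with 23, and that of HOXD10 chr2:176116528-176116777 with 23. RefSeq windows were found for 20 of the 39 genes. HOXC4 and HOXC5 share 1 window, counted once, and the set held 26 different windows. Most of these belong to HOXA genes, several of them to HOXA3. HOXB is represented by HOXB1 alone and HOXC by the shared window alone, so the clusters are covered unevenly. Repeated windows were not removed from those of all genes. The median ratio of observed to expected CpG was 0.886 in these windows, against 0.558 over 35116 windows of all genes in the table. The homeodomain core motif TAAT, on either strand, occurred in 73.1% of HOX windows and in 47.4% of all windows. TGATNNAT, the form bound by HOX proteins with PBX, occurred in 11.5% of HOX windows and in 6.47% of all windows. AGGTCA, the retinoic acid receptor half-site, occurred in 0 of the 26 HOX windows and in 12.1% of all windows. Among the 4 windows shown, TAAT occurred in those of HOXD12, HOXD11 and HOXD10, and TGATNNAT in that of HOXD11. No methylation or binding was measured.

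The HOX code differed between lines far more than between the 2 libraries of a line. Summed over the 39 genes, the level was 80.1 and 75.4 FPKM in A549. In H1299 the sums were 249.6 and 260.3 FPKM, and in labelled H2030 348 and 322 FPKM. A549 was thus lowest and labelled H2030 highest, and no library of one line overlapped another line. Median-of-ratios scaling narrowed the gap between H1299 (259.6 and 268) and labelled H2030 (292 and 282), and the order stayed. Over the 39 genes, Pearson's r of log2(FPKM+1) was 0.95 between the A549 libraries, 0.99 between the H1299 libraries and 0.90 between the libraries labelled H2030. Between libraries of different lines r lay between 0.29 and 0.45. These are descriptions over genes that share a library and its depth.

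**Figure D1:**
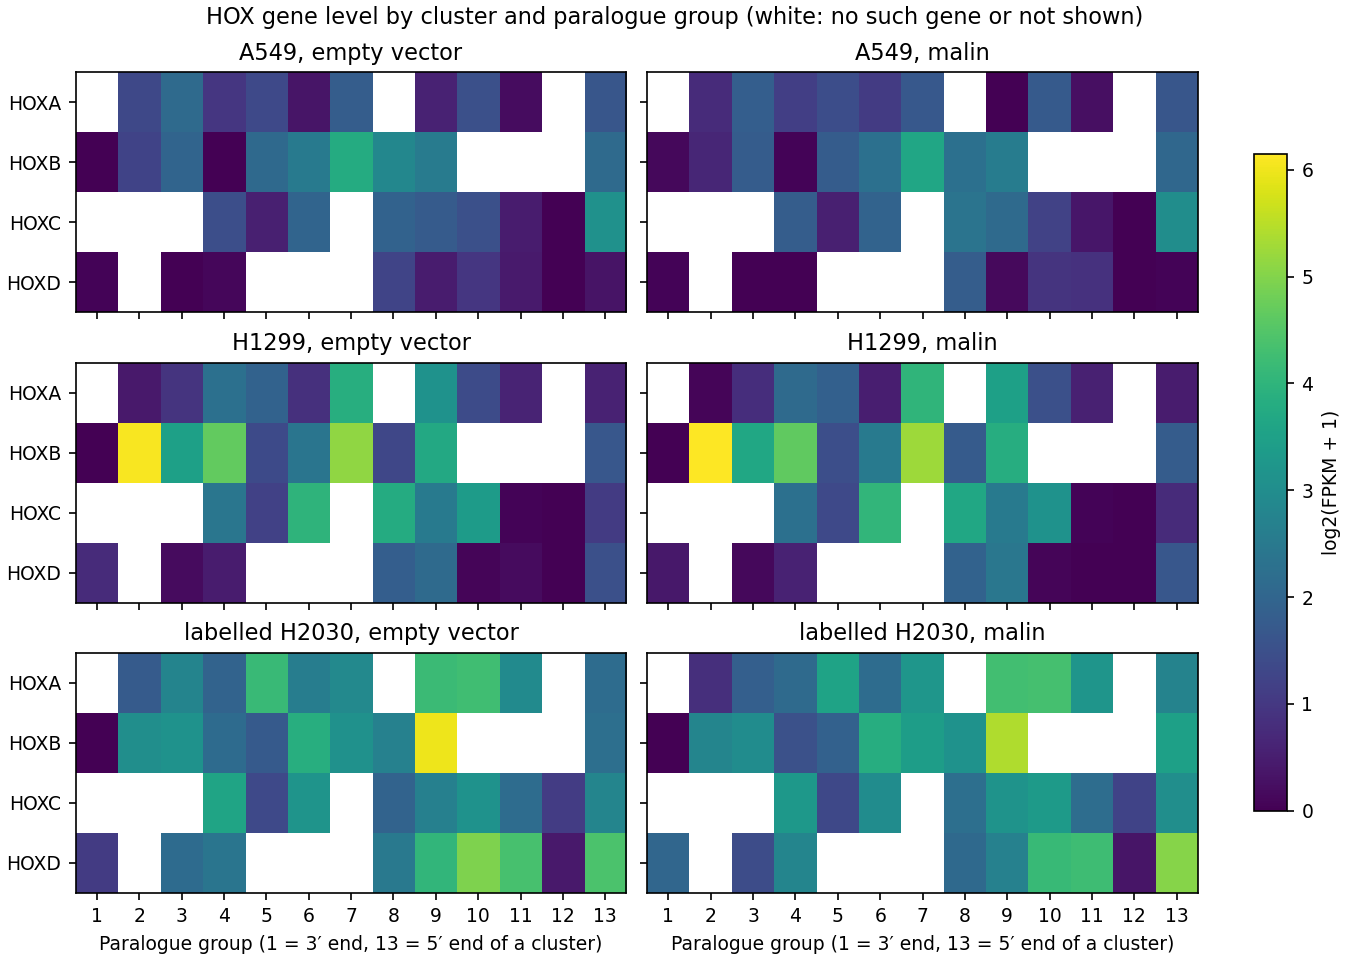
Level of the 38 HOX genes shown as log2(FPKM + 1) in the 6 libraries, with clusters as rows and paralogue groups as columns; white marks no gene or a gene not shown. H1299 is brightest at HOXB2, HOXB7 and HOXB4, and HOXB9 is the brightest gene in both libraries labelled H2030, where HOXA9, HOXA10, HOXD10, HOXD11 and HOXD13 are above 16 FPKM.

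Counting genes at 1 FPKM or more in both libraries of a line, 20 of 39 passed in A549, 24 in H1299 and 36 in labelled H2030. In either library alone the counts were 22 and 22, 25 and 24, and 37 and 36. As shares these were 56.4% and 56.4% in A549, 64.1% and 61.5% in H1299, and 94.9% and 92.3% in labelled H2030. Over all protein-coding genes the shares were 64.1% and 63.8%, 63.9% and 64.3%, and 70.1% and 69.2%. A shared set of 17 genes passed in every line, and it held 7 HOXB, 5 HOXC and 4 HOXA genes but only HOXD8 from HOXD. Another 10 passed in a pair of lines. The 9 genes that passed in 1 line all did so in labelled H2030: HOXA6, HOXA11, HOXC11, HOXC12, HOXD1, HOXD3, HOXD4, HOXD10 and HOXD11. HOXA2, HOXB1 and HOXD12 passed in no line. HOXB1, the hindbrain gene at the 3′ end of HOXB, was listed at 0 in 5 libraries and at 0.10 FPKM in A549 with malin. HOXD12 was listed at 0 in A549 and H1299 and stood at 0.34 and 0.28 FPKM in labelled H2030.

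In A549 the highest HOX gene was HOXB7, a central gene often studied in epithelial tumours. Its level was 12.65 and 11.41 FPKM, against 33.72 and 37.03 in H1299 and 7.67 and 9.78 in labelled H2030. A549 lay between the other lines with no overlap. HOXC13, a posterior gene with a known role in hair follicles, came second at 7.68 and 7.07 FPKM, against 1.10 and 0.70 in H1299 and 5.94 and 7.18 in labelled H2030, so it overlapped labelled H2030. In HOXA the leading gene was HOXA3, a pharyngeal and thymic patterning gene, at 3.35 and 2.59 FPKM. HOXD was nearly silent, and HOXD8, at 1.41 and 2.51 FPKM, was the single HOXD gene at 1 FPKM in both libraries. HOXB gave 49.3% and 43.5% of summed HOX FPKM and HOXD 4.38% and 5.92%. No HOX gene in A549 lay above all 4 libraries of the other lines, and 20 lay below all 4. Under median-of-ratios scaling and under quantile normalization 2 lay above and 19 below. Over all protein-coding genes the shares on the deposited FPKM were 15.4% above and 27.0% below, and they were not counted under the scalings.

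H1299 was led by anterior and central HOXB genes. HOXB2, which patterns the hindbrain, stood at 67.40 and 69.73 FPKM, against 1.36 and 0.57 in A549 and 7.20 and 5.96 in labelled H2030. HOXB4, studied as a regulator of blood stem cells, stood at 24.28 and 24.19 FPKM, against 0 and 0.05 in A549 and 3.44 and 1.90 in labelled H2030. The gene between them, HOXB3, was at 10.31 and 11.54 FPKM, against 2.97 and 2.43 in A549 and 7.78 and 6.98 in labelled H2030. All of these were higher in H1299 than in every library of the other lines. The same held for HOXA7 (13.33 and 15.21 FPKM), HOXB7, HOXC6 (14.90 and 15.57 FPKM) and HOXC8 (12.69 and 11.74 FPKM), 7 genes in all, and 10 genes lay below all other libraries. The shares over all protein-coding genes were 18.0% above and 22.2% below. Anterior genes gave 46.0% and 44.5% of summed HOX FPKM in H1299, against 17.5% and 16.1% in A549 and 15.1% and 14.5% in labelled H2030.

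Labelled H2030 was led by posterior genes. HOXB9, the last HOXB gene before the gap in front of HOXB13, stood at 62.49 and 41.35 FPKM, compared with 4.87 and 4.95 in A549 and 11.97 and 13.12 in H1299. HOXA10, active in the reproductive tract and in blood progenitors, stood at 18.18 and 19.02 FPKM, compared with 1.82 and 2.33 in A549 and 1.65 and 1.85 in H1299. HOXA9, a posterior gene known in leukaemia, was at 17.10 and 18.41 FPKM, compared with 0.50 and 0 in A549 and 7.84 and 10.26 in H1299. Posterior genes gave 63.6% and 63.3% of summed HOX FPKM, compared with 33.9% and 35.5% in A549 and 18.2% and 18.6% in H1299. In labelled H2030, 23 genes lay above all other libraries and HOXB7 alone lay below them. The shares over all protein-coding genes were 35.7% above and 12.6% below, counted on the deposited FPKM only. With median-of-ratios scaling the number above was 21 and with quantile normalization 16, and the number below was 1 and 2.

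**Figure D2:**
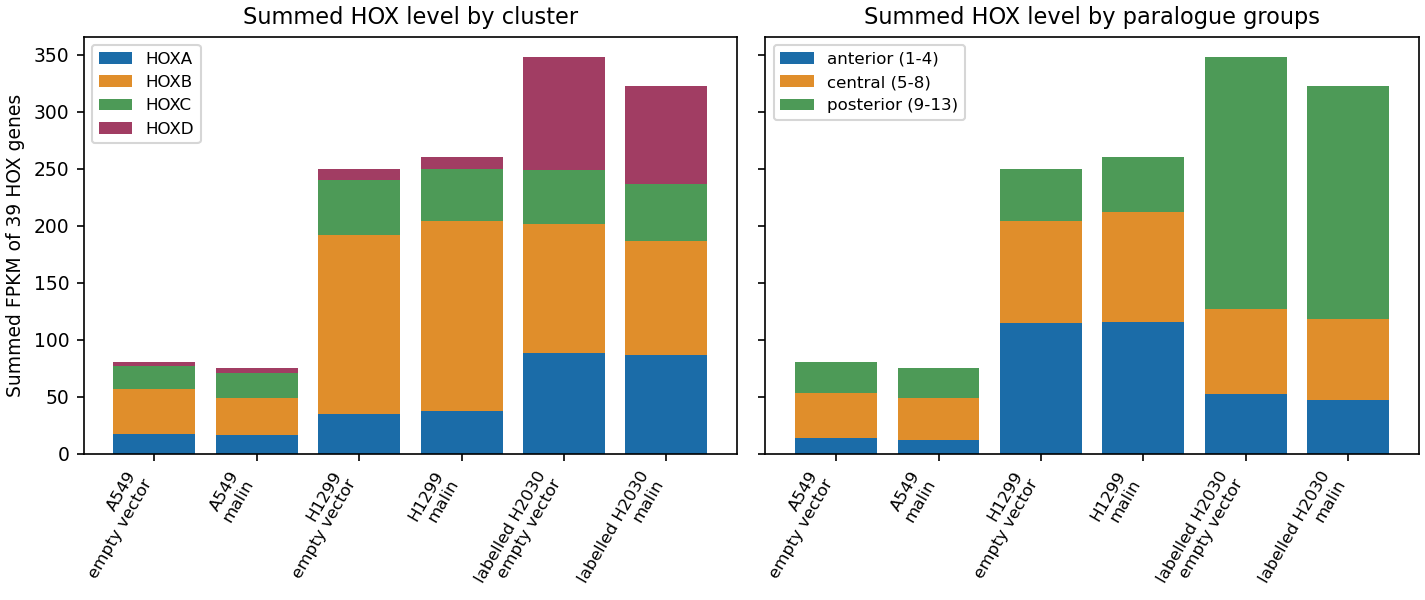
Summed FPKM of the 39 HOX genes in each library, stacked by cluster (left) and by anterior, central and posterior paralogue groups (right). The bars rise from 80.1 and 75.4 in A549 to 348 and 322 in labelled H2030, where posterior genes give over 63% of the bar.

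HOXD was the cluster that set labelled H2030 furthest apart. Its 9 genes summed to 99.4 and 85.9 FPKM there, against 3.51 and 4.46 FPKM in A549 and 9.22 and 10.3 FPKM in H1299. HOXD10, a gene of limb and spinal cord patterning, stood at 30.16 and 16.59 FPKM, against 0.97 and 0.90 in A549 and 0.06 in both H1299 libraries. HOXD13 stood at 20.30 and 31.80 FPKM, compared with 0.26 and 0.04 in A549 and 1.83 and 2.19 in H1299. HOXD11, which acts in forearm and kidney development, stood at 19.63 and 17.74 FPKM, compared with 0.36 and 0.85 in A549 and 0.14 and 0 in H1299. None of the 3 overlapped another line. HOXD12, between HOXD13 and HOXD11 on the chromosome, stayed under 1 FPKM in every library although both neighbours were above 17 FPKM in labelled H2030. Further towards the 3′ end, HOXD8 passed 1 FPKM in every library, at 1.41 to 2.51 FPKM in A549, 2.60 and 2.79 in H1299 and 4.59 and 3.29 in labelled H2030. MTX2, a mitochondrial gene beside the 3′ end of HOXD, stood at 35.16 to 37.66 FPKM in all 6 libraries. EVX2, beside HOXD13, was at 0.16 FPKM in labelled H2030 with the empty vector and at 0 in the other 5 libraries.

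**Figure D3:**
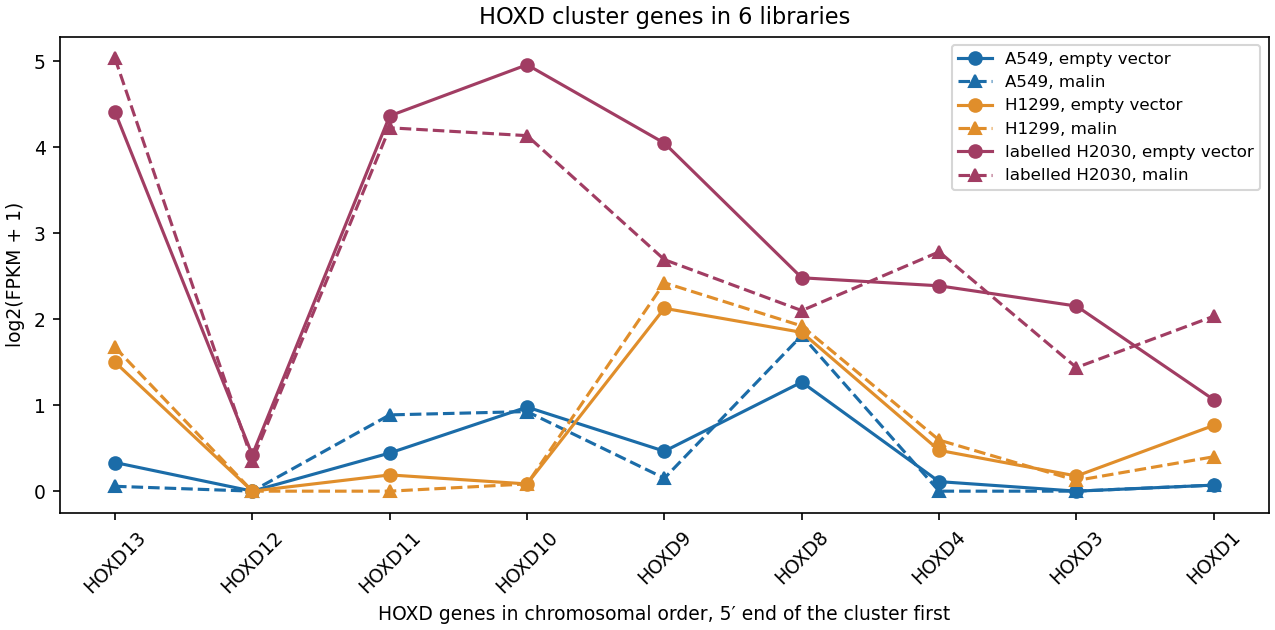
Level of the 9 HOXD genes as log2(FPKM + 1), in chromosomal order from the 5′ end of the cluster. Circles and solid lines are empty-vector libraries and triangles and dashed lines malin libraries. The pair labelled H2030 lies above both other lines at HOXD13, HOXD11 and HOXD10 and falls to 0.34 and 0.28 FPKM at HOXD12.

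The remaining HOXA genes were mostly highest in labelled H2030. HOXA5, which is needed for lung and airway development, measured 1.58 and 1.74 FPKM in A549, 2.80 and 2.69 in H1299 and 16.82 and 10.80 in labelled H2030. HOXA11, a limb and uterine gene, was at 6.72 and 8.18 FPKM in labelled H2030, 0.52 and 0.48 in H1299 and 0.15 and 0.19 in A549. Both were highest in labelled H2030 with no overlap, as were HOXA6 and HOXA13. HOXA13, the most posterior HOXA gene, measured 2.12 and 2.13 FPKM in A549, 0.51 and 0.38 in H1299 and 3.48 and 5.71 in labelled H2030, so that H1299 was lowest and A549 intermediate. HOXA4 broke this order, at 2.91 and 3.34 FPKM in labelled H2030, 3.85 and 3.33 in H1299 and 0.97 and 1.19 in A549, with A549 lowest and the other lines overlapping.

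The remaining HOXB genes were above 1 FPKM in every library. HOXB5, active in the lung bud, measured 3.29 and 2.46 FPKM in A549, 1.59 and 1.77 in H1299 and 2.32 and 2.73 in labelled H2030, and none of the limma comparisons between lines called it. HOXB6 measured 13.46 and 13.26 FPKM in labelled H2030, 4.25 and 4.77 in H1299 and 4.83 and 3.84 in A549, so that A549 and H1299 overlapped while labelled H2030 lay above both. HOXB8 measured 6.18 and 3.80 FPKM in A549, 1.48 and 2.42 in H1299 and 5.46 and 7.81 in labelled H2030, with H1299 lowest and the other pairs overlapping. HOXB13, far from the rest of its cluster, measured 3.76 and 10.20 FPKM in labelled H2030, 2.20 and 2.47 in H1299 and 3.35 and 3.17 in A549. It was lowest in H1299, and the gap between the 2 libraries labelled H2030 was wider than that between labelled H2030 with the empty vector and A549.

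The remaining HOXC genes up to HOXC10 were detected in every library. HOXC4 measured 1.79 and 2.50 FPKM in A549, 4.36 and 3.79 in H1299 and 10.94 and 8.74 in labelled H2030. HOXC5 was at 1.56 and 1.51 FPKM in labelled H2030, 1.29 and 1.58 in H1299 and 0.46 and 0.45 in A549, with A549 lowest for both. HOXC9 measured 2.42 and 3.39 FPKM in A549, 4.80 and 4.77 in H1299 and 5.35 and 7.92 in labelled H2030, in the same order of lines. HOXC10, a hindlimb and spinal cord gene, measured 7.79 and 9.22 FPKM in labelled H2030, 9.32 and 7.74 in H1299 and 1.85 and 1.31 in A549, so that A549 was low and the other lines overlapped. HOXC11 measured 0.39 and 0.29 FPKM in A549, 0.05 and 0.05 in H1299 and 3.52 and 3.55 in labelled H2030. HOXC12 was at 1.12 and 1.36 FPKM in labelled H2030, 0 and 0 in H1299 and 0 and 0 in A549. Both were at 1 FPKM or more only in labelled H2030, whereas HOXC13, the next gene, was above 5 FPKM in A549 as well.

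The 3′ genes of HOXD were low in A549 and H1299. HOXD1 measured 0.05 and 0.05 FPKM in A549, 0.70 and 0.32 in H1299 and 1.09 and 3.10 in labelled H2030. HOXD3 was at 3.45 and 1.71 FPKM in labelled H2030, 0.13 and 0.09 in H1299 and 0 and 0 in A549. HOXD4 was at 0.08 and 0 FPKM in A549, 0.39 and 0.51 in H1299 and 4.24 and 5.89 in labelled H2030. All 3 were highest in labelled H2030 with no overlap. HOXD9 measured 15.56 and 5.47 FPKM in labelled H2030, 3.37 and 4.37 in H1299 and 0.38 and 0.11 in A549, and stood above 3 FPKM in H1299, where its neighbour HOXD10 was at 0.06 FPKM.

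By paralogue group, the members of a group did not move as one. Group 2 held 27.1% and 26.8% of summed HOX FPKM in H1299, nearly all from HOXB2, while its other gene HOXA2 was at 0.34 and 0.06 FPKM. Group 9 held 28.9% and 22.7% in labelled H2030, compared with 10.2% and 11.2% in A549 and 11.2% and 12.5% in H1299. Group 11 summed to 29.9 and 29.5 FPKM in labelled H2030 and to at most 1.33 FPKM in any other library. Group 13, the most posterior, was carried by HOXC13 in A549 and by HOXD13 in labelled H2030. Its sums were 13.4 and 12.4 FPKM in A549, 5.64 and 5.74 in H1299 and 33.5 and 54.9 in labelled H2030. Groups 2, 4, 7 and 8 were higher in both H1299 libraries than in both libraries labelled H2030. For group 7 the sums were 47.1 and 52.2 FPKM in H1299, against 14.1 and 18.1 in labelled H2030 and 15.2 and 13.6 in A549.

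The lines were compared with limma, a linear model with moderated variances, on log2(FPKM+1) over all 17537 protein-coding genes with Benjamini-Hochberg adjustment at 0.05. Between A549 and H1299, 20 of 39 HOX genes passed, 5 higher and 15 lower in A549. The background over all genes was 43.4% called, 19.3% higher and 24.1% lower. The largest differences were lower in A549: HOXB2 (log2 difference -5.18, SE 0.18, adjusted p 0.00036 with limma), HOXB4 (-4.62), HOXA9 (-3.03) and HOXA7 (-2.18). HOXC13 (2.15), HOXA13 (1.11), HOXA3 (1.11) and HOXA2 (0.79) were higher. The median difference of the 39 genes was -0.36, against -0.01 over all genes. Leaving out 1 library of either line called fewer HOX genes and fewer genes in all. The HOX median was then -0.29 without A549 empty vector, -0.44 without A549 malin, -0.30 without H1299 empty vector and -0.39 without H1299 malin. The medians over all genes were -0.03 to -0.01. Without both libraries labelled H2030, 26 of 37 passed, and these included all 20, beside 9464 of 16818 genes in all.

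Between A549 and labelled H2030, 29 HOX genes passed by limma, and all 29 were lower in A549. The background was 52.6% called, 16.3% higher and 36.4% lower. The largest differences were those of HOXD13 (log2 difference -4.53, SE 0.25, adjusted p 0.00056 with limma), HOXA9 (-3.94), HOXD11 (-3.63) and HOXD10 (-3.60). In HOXD 8 of 9 genes passed, with HOXD8 as the exception, and in HOXB 5 of 10. The median difference of the 39 genes was -1.30, against -0.15 over all genes. Median-of-ratios scaling moved the median of all genes to -0.02 and the share of calls higher in A549 from 30.9% to 48.3%. The HOX split was then 1 higher, HOXB7, and 27 lower, with a median of -1.04. Leaving out either A549 library called fewer HOX genes and fewer genes in all. The HOX median was then -1.29 without A549 empty vector and -1.20 without A549 malin, against -0.16 and -0.17 over all genes.

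Between H1299 and labelled H2030, 29 HOX genes passed by limma, 7 higher and 22 lower in H1299. The background was 51.3% called, 17.4% higher and 33.9% lower. Those higher in H1299 were HOXB2 (log2 difference 3.20, SE 0.18, adjusted p 0.00064 with limma), HOXB4 (2.81), HOXB7 (1.91), HOXC8 (1.63), HOXC6 (0.94), HOXA7 (0.88) and HOXB3 (0.51). The largest in the other direction were HOXD10 (-4.47), HOXD11 (-4.20), HOXD13 (-3.14) and HOXA10 (-2.83). HOXA and HOXD accounted for 15 of the 22 lower genes, and HOXB had 4 higher and 3 lower. The median difference of the 39 genes was -1.09, against -0.12 over all genes. With median-of-ratios scaling the all-gene split moved from 33.9% to 47.3% higher, and the HOX calls were 7 higher and 20 lower. Leaving out either H1299 library called fewer HOX genes and fewer genes in all. The HOX median was then -1.18 without H1299 empty vector and -1.12 without H1299 malin, against -0.11 and -0.15 over all genes. All comparisons between lines share libraries with one another.

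No HOX gene passed the test of malin against the empty vector over the lines. With limma on 12182 protein-coding genes at a mean of 1 FPKM or more, with line as a block, 0 of the 33 HOX genes tested passed, and 0.0% of all genes passed. At an unadjusted p under 0.05 there were 1 HOX gene and 213 genes in all. The HOX gene was HOXA3, at 3.35 and 2.59 FPKM in A549, 0.91 and 0.75 in H1299 and 5.79 and 2.64 in labelled H2030. Its log2 difference was -0.43 (SE 0.18), lower in 3 of 3 lines, with an adjusted p of 0.927 by limma with Benjamini-Hochberg adjustment. Of the 39 HOX genes, 2 were lower in every line, HOXA3 and its neighbour HOXA2, and 1 was higher in every line, HOXA10. HOXA2 rested on 6 and 1 estimated fragments in H1299, 27 and 12 in A549 and 34 and 14 in labelled H2030. Its mean was under 1 FPKM, so it was not among the 33 HOX genes tested. How many genes in all kept 1 direction over the lines was not counted. The median difference of the tested HOX genes was -0.02, against -0.01 over all genes. Without the libraries labelled H2030, 0 of 26 HOX genes passed, at 6 of 11607 genes in all.

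Within a line there was no replicate of either vector and no test. In A549, 3 of 39 HOX genes differed by 1.5-fold or more on the FPKM+1 scale, HOXA6 higher and HOXA9 and HOXB2 lower, beside 1.16% of protein-coding genes. In H1299 the count was 0, beside 0.57%. In labelled H2030 it was 11, beside 9.75%. There 4 were higher with malin, among them HOXB13, HOXD1 and HOXD13, and 7 were lower, namely HOXA2, HOXA3, HOXA5, HOXB4, HOXD3, HOXD9 and HOXD10. The SD of the log2 differences over the 39 genes was 0.30 in A549, 0.19 in H1299 and 0.54 in labelled H2030, against 0.18, 0.15 and 0.36 over all protein-coding genes. The pair with the mismatched column heading thus had the widest spread among HOX genes and among all genes, and whether the heading bears on it was not tested.

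**Figure D4:**
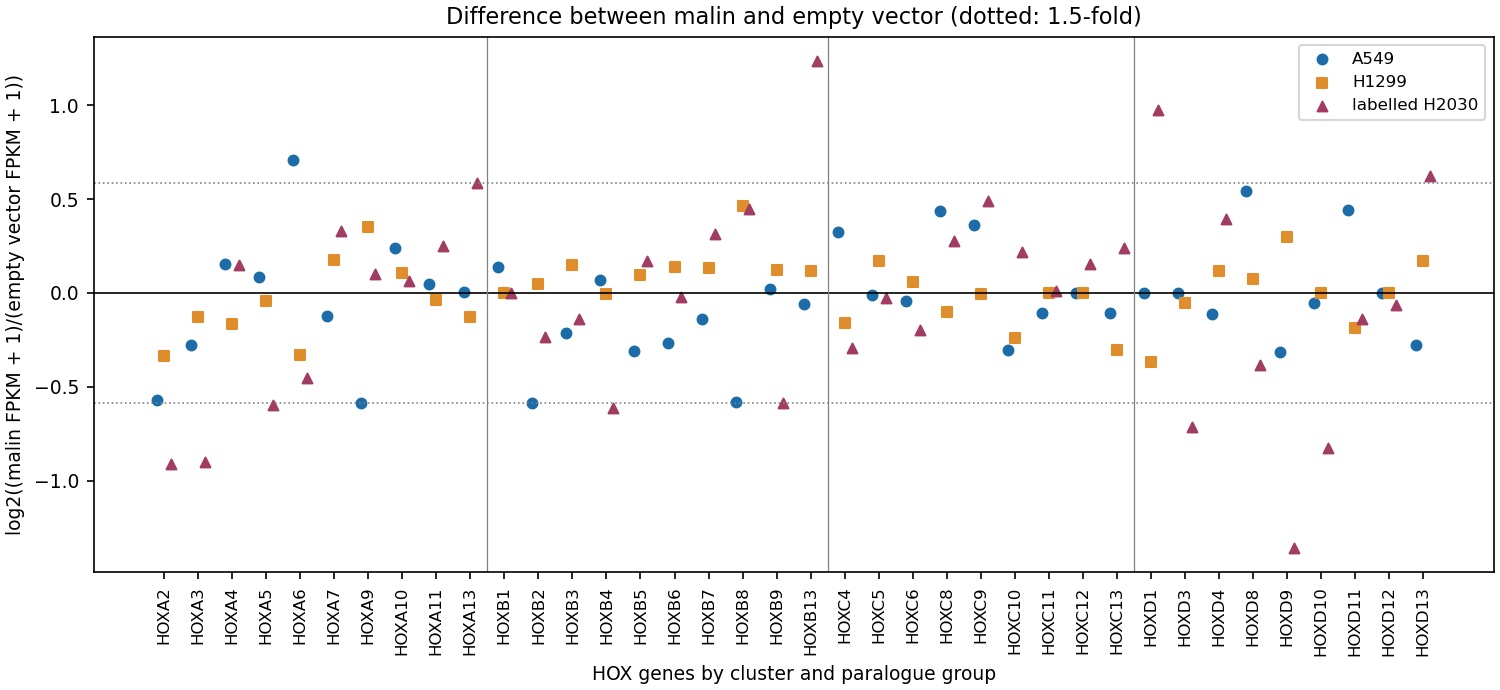
Log2((malin FPKM + 1)/(empty vector FPKM + 1)) of the 38 HOX genes shown in each line, with 1 library per vector and dotted lines at 1.5-fold. Squares of H1299 all lie within the dotted lines, whereas triangles of labelled H2030 reach further, from -1.36 at HOXD9 to 1.23 at HOXB13.

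For genes with 1 transcript, fragment numbers were estimated from FPKM, length and depth, and the ratio of malin to empty vector was given a 95% exact binomial interval (Clopper-Pearson), which covers counting error only. In labelled H2030 HOXB13, a prostate and hindgut gene, went from 105 to 343 estimated fragments, a ratio of 2.71 (2.17 to 3.41). HOXD9, a posterior limb gene, went from 229 to 97, a ratio of 0.352 (0.274 to 0.448). HOXD10 had a ratio of 0.549 (0.475 to 0.635) and HOXD13 one of 1.57 (1.38 to 1.78), so genes of the same cluster differed in opposite directions. HOXD1 had 17 and 58 estimated fragments, a ratio of 2.83 (1.63 to 5.19). HOXB9, the highest gene of the pair, had a ratio of 0.662 (0.609 to 0.719). The interval excluded 1 for 14 of 31 HOX genes in labelled H2030, 7 in each direction, beside 41.8% of all genes counted this way. It did so for 4 of 29 in A549, beside 15.9%, and for 1 of 29 in H1299, beside 10.3%.

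In A549 the largest log2 differences were those of HOXA6 (0.707), HOXB2 (-0.588) and HOXA9 (-0.585), all at low levels. HOXB8 (-0.581), among the highest HOX genes of this line, moved nearly as far. HOXA6 stood at 0.28 and 1.09 FPKM, or 3 and 10 estimated fragments, and its interval included 1 (0.842 to 18.5). HOXA9 was at 0.50 FPKM, or 10 estimated fragments, and was listed at 0 with malin. HOXB8 stood at 6.18 and 3.80 FPKM, a ratio of 0.615 (0.449 to 0.839), and HOXC8 at 2.79 and 4.12 FPKM, a ratio of 1.48 (1.03 to 2.15). In H1299 the interval excluded 1 for HOXA9, at 7.84 and 10.26 FPKM, a ratio of 1.31 (1.06 to 1.62). As listed, HOXA9 was lower with malin in A549 and higher in H1299, and the difference between the lines was not tested. HOXA9 and HOXA10 share sequence with a readthrough gene, HOXC4, HOXC5 and HOXC6 share exons, and antisense RNAs overlap several members, so their values are uncertain where counting splits shared fragments. The readthrough gene, HOXA10-HOXA9, was listed at 0.14 FPKM in A549 with malin and at 0 in every other library. Whether fragments of HOXA9 were assigned to it was not tested.

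The 10 genes listed as partners included PBXIP1, which lies outside the PBX, MEIS and PKNOX families. Of these 10, 7 passed limma between A549 and H1299, 2 higher and 5 lower in A549. Between A549 and labelled H2030 it was 1 higher and 6 lower, and between H1299 and labelled H2030 2 higher and 5 lower in H1299. Over all genes 43.4%, 52.6% and 51.3% were called in these comparisons. PBX3, a DNA-binding partner of HOX proteins, stood at 6.57 and 8.66 FPKM in A549, 61.96 and 60.19 in H1299 and 7.88 and 7.50 in labelled H2030. MEIS3 stood at 9.27 and 11.10 FPKM in A549, 0.50 and 0.69 in H1299 and 10.91 and 8.01 in labelled H2030. PKNOX2 was listed at 0 in all A549 and H1299 libraries and stood at 5.11 and 3.07 FPKM in labelled H2030. The median log2 differences of the 10, in the order of these comparisons, were -0.31, -0.73 and -0.47, against -0.01, -0.15 and -0.12 over all genes. None of the 10 passed the malin comparison, as 0.0% of genes did.

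Among upstream inputs, CDX2, a caudal factor that activates posterior HOX genes in the embryo, stood at 15.81 and 18.85 FPKM in labelled H2030, 1.0 and 0.56 in A549 and 0.04 and 0.05 in H1299. ALDH1A1, which makes retinoic acid, stood at 2243 and 2133 FPKM in A549 and at 1.17 FPKM or lower in the other libraries. Of the 20 CDX and retinoic acid genes, 11 were higher and 6 lower in A549 than in H1299, 8 higher and 8 lower in A549 than in labelled H2030, and 0 higher and 11 lower in H1299 than in labelled H2030, by limma. Their medians were 0.52, -0.04 and -0.75, against -0.01, -0.15 and -0.12 over all genes, of which 43.4%, 52.6% and 51.3% were called. All 28 Polycomb and 17 trithorax genes stood at 1 FPKM or more in every library. Of the Polycomb genes, 10 were lower and 6 higher in A549 than in H1299, 17 lower and 3 higher in A549 than in labelled H2030, and 18 lower and 5 higher in H1299 than in labelled H2030, with medians of -0.14, -0.61 and -0.60. Over all genes 24.1%, 36.4% and 33.9% were lower and 19.3%, 16.3% and 17.4% higher. EZH2, the methyltransferase of Polycomb complex PRC2, stood at 17.40 and 16.20 FPKM in A549, 27.54 and 27.44 in H1299 and 47.09 and 51.96 in labelled H2030. CBX2, a Polycomb reader, stood at 15.94 and 31.23 FPKM in labelled H2030, 9.47 and 8.01 in A549 and 1.90 and 1.93 in H1299. Of the trithorax genes, in the same order of comparisons, 7 were lower and 2 higher, 9 lower and 1 higher, and 7 lower and 2 higher, with medians of -0.28, -0.49 and -0.19.

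Noncoding RNAs of the clusters are outside the fit, which covers protein-coding genes. HOTAIR, transcribed from the HOXC cluster, stood at 5.43 and 5.96 FPKM in labelled H2030 and at 0.09 FPKM or lower in the other 4 libraries. HOTAIRM1, from the HOXA cluster, stood at 11.84 and 18.83 FPKM in labelled H2030, 3.30 and 3.60 in A549 and 1.66 and 1.85 in H1299. HOXA11-AS, opposite HOXA11, stood at 3.49 and 4.90 FPKM in labelled H2030 and at 0.27 FPKM or lower elsewhere. Beside HOXB2 and HOXB3, HOXB-AS1 stood at 4.56 and 4.63 FPKM in H1299, 0.42 and 1.09 in A549 and 0.86 and 1.16 in labelled H2030. Differences between lines in these RNAs were not tested. Strand was not given, so reads of a HOX gene and its antisense RNA cannot be told apart. Of 18 genes flanking the clusters, 7 passed limma between A549 and H1299, 3 between A549 and labelled H2030 and 8 between H1299 and labelled H2030, beside 43.4%, 52.6% and 51.3% of all genes.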

How the data were processed

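The authors deposited gene-level FPKM, a unit given per the file headers. Tools listed in the submitters' processing notes, without versions, are Cufflinks, STAR, FastQC and cutadapt, with hg38 as the build. Whether counting was stranded: not given in the sources used here. Per the labels' protocols, RNA was extracted with a column kit. Members, gene lists and tests were chosen with earlier results of these data known. PREP, first listed as a partner, encodes a peptidase and was removed. Gene types and promoters came from RefSeq tables of GRCh38.p14, positions from GENCODE on GRCh38. Linear models of log2(FPKM+1) were run in limma 3.58.1 under R 4.3.3, with eBayes and an intensity trend and Benjamini-Hochberg adjustment at 0.05, after the script was tested on simulated data. The malin fit (line + vector) used genes with a mean of at least 1 FPKM, and the line fit (line + vector) all 17537 protein-coding genes. Each had 2 residual degrees of freedom. Fragments were estimated from the spacing of low FPKM values of genes with 1 transcript, where 75.5% to 79.3% lay within 0.2 of a whole number (40% by chance), with length less 100 bases. Named genes were up to 3 leading members per cluster and line, the largest differences per contrast and up to 4 genes per list; other members, marker genes and genes without a line-contrast rank were named after their values were seen. Python 3.11.15, numpy 2.4.6, pandas 2.3.3 and scipy 1.17.1 were used. Alternatives were pseudocounts 0.1 and 5, other filters, median-of-ratios scaling, quantile normalization, no vector term or block, no trend and leaving out libraries or lines; the fit without labelled H2030 for A549 against H1299, the counts in malin libraries alone, and sums and overlaps under other scalings were chosen after seeing the data. Protein sequences were not used here. Values of some genes are left out of the text and the plots by gene, and remain in counts and sums.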

Additional observations from a re-analysis of the deposited data

How the results depend on the processing

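Counts of HOX genes called between lines stayed within 1.5 times of the reported count under the other filters, scalings, trend and vector settings. The background moved with the filter. Among genes at a mean of 1 FPKM or more, A549 against H1299 called 23 of 33 HOX genes, beside 7508 of 12182 genes in all. A549 against labelled H2030 called 27 of 33, beside 8165 of 12182. H1299 against labelled H2030 called 27 of 33, beside 7877 of 12182. With a pseudocount of 5, A549 against H1299 gave 13 of 39 HOX genes in place of 20, beside 7149 of 17537 genes in all in place of 7605. Leaving out 1 library gave 2 to 5 for A549 against H1299, 16 to 29 for A549 against labelled H2030 and 11 to 25 for H1299 against labelled H2030; these fits have 1 residual degree of freedom, and the lone library is assumed to vary like the others. No called direction reversed. Counts past 1.5-fold between vectors depended on the pseudocount. In A549 the count was 12 with 0.1, 0 with 5 and 5 with median-of-ratios scaling, and 0 genes passed 2-fold. In H1299 it was 6 with 0.1. In labelled H2030 it was 3 with 5, and 2 genes passed 2-fold. Shares over all protein-coding genes were not counted under these settings, so these counts have no background beside them. The malin comparison gave 0 HOX genes in every alternative run, including without the line block. Genes under 1 FPKM rest on few fragments, and a difference such as that of HOXA6 in A549 was not detectable at this depth.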
